A study of Felis catus with 2 samples.

Results

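The genes described here mark the neurons, glia and pigment epithelium that surround the photoreceptors of the retina. They were taken as 34 gene names, and 30 of them had a row of their own among the 32065 loci of the deposited expression table. They were measured in polyadenylated RNA from the iridocorneal angle, the tissue between iris and cornea, dissected together with the ciliary body and the adjoining sclera and trabecular meshwork. A single library came from a cat with primary congenital glaucoma (PCG), and a single library from a healthy cat unrelated to it. Both animals were 2 months old. The disease of the affected colony is inherited as a recessive trait with a frameshift insertion in LTBP2, which the genotyped affected cats carried on both alleles. The affected cat was sequenced to examine transcripts of the mutated LTBP2. The colony descends from Siamese founders crossed to domestic shorthairs, and the breed of these particular animals was not given in the sources used here. The neural retina was not named in the description of the dissected tissue. With 1 library per condition no difference can be tested, so "higher" and "lower" below describe these libraries and not the disease.

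In the retina, photoreceptors pass their signal to bipolar cells, and bipolar cells pass it to ganglion cells, whose axons form the optic nerve. Horizontal and amacrine cells modify the signal at the outer and inner synaptic layers. Müller glia span the whole thickness, take up the released glutamate and convert it to glutamine, and help to recycle retinoids. The retinal pigment epithelium lies behind the photoreceptors and regenerates the visual chromophore. Toward the front of the eye the neural retina and the pigment epithelium continue into the non-pigmented and pigmented epithelium of the ciliary body, which keep part of their gene expression. Ganglion cells are the neurons lost in glaucoma.

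Levels are given as FPKM, which counts sequenced fragments relative to transcript length and library size, so levels can be compared between genes. A level of 1 FPKM corresponded to about 71.0 fragments per kilobase of effective length in the normal library and 67.4 in the affected one, with a counting error of 11.9% and 12.2%. Marker genes of the dissected tissue differed between the libraries. Summed over their lists, ciliary epithelium genes were at 2959.9 FPKM in the normal library and 7846 FPKM in the affected one without CPAMD8, which was at 43.3 FPKM in the former and listed at 0 in the latter, and smooth muscle genes at 1378 and 1149 FPKM. Stromal fibroblast genes were at 4518 and 177 FPKM without COL1A2, which was listed at 0 in the normal library and at 447.2 FPKM in the affected one. In the affected library the keratocyte gene KERA stood at 0.190 FPKM. In a bulk sample fewer cells of a type and less RNA per cell cannot be told apart.

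All 30 genes had a value above 0 in both libraries, and they spanned a wide range of levels. The highest in the normal library was VIM with 1647 FPKM, and the highest in the affected library was GLUL with 1981 FPKM. POU4F2 was the lowest in both, with 0.0651 and 0.0349 FPKM. The 3 genes POU4F1, POU4F2 and ONECUT1 stayed under 1 FPKM in both libraries, which left 27 genes for the counts below. In sum, the 30 genes held 0.403% of all FPKM in the normal library and 0.601% in the affected one. Most of that sum came from VIM and GLUL, and the other genes summed to 619 and 957 FPKM.

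**Figure D1:**
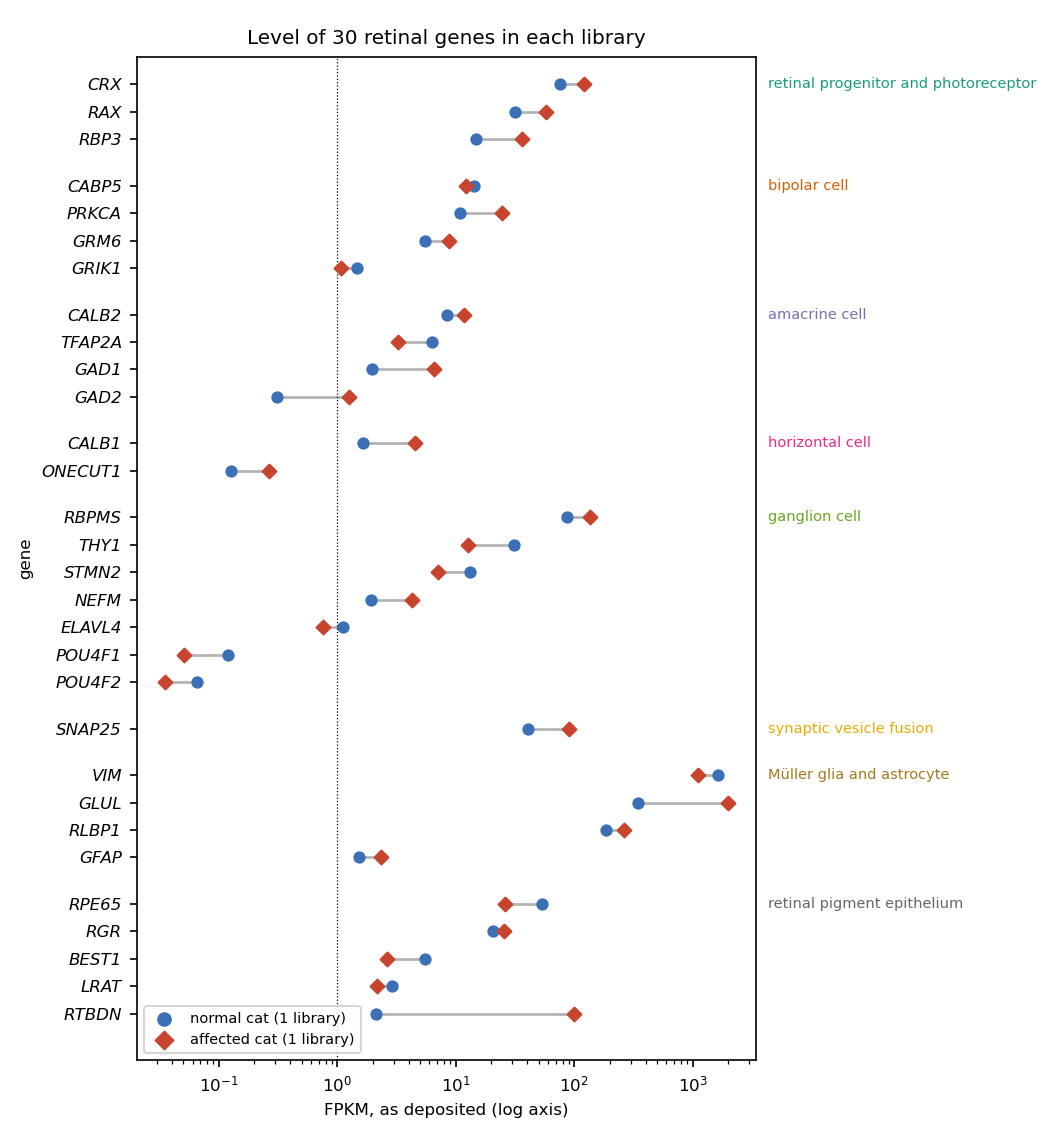
FPKM of each of the 30 genes on a log axis, grouped by the cell type the gene marks, with 1 point for the normal library and 1 for the affected library. The dotted line marks 1 FPKM. RTBDN and GLUL show the widest gaps with the affected library higher, while RPE65, THY1 and STMN2 were higher in the normal library.

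The difference between the libraries was expressed as the log2 ratio, log2 of affected FPKM + 1 over normal FPKM + 1, a scale that understates the change of low genes. The median log2 ratio of the 27 genes was 0.50, beside −0.0047 for all 16676 loci that reached 1 FPKM in the normal or the affected library. A higher level in the affected library was seen for 17 genes and a lower level for 10. At least 2-fold higher were 7 of the 27 genes, or 25.9%, where 8.14% of all loci were. These were RTBDN, GLUL, GAD1, RBP3, SNAP25, PRKCA and CALB1. At least 2-fold lower were 2 genes, or 7.41%, where 8.75% of all loci were. These were THY1 and RPE65, and RPE65 stood on the threshold with a log2 ratio of −1.001. The genes GAD2, NEFM and BEST1 passed 2-fold in plain FPKM but not on this scale, and are not counted. All counts of genes at least 2-fold higher or lower, for other lists too, are on this scale unless plain FPKM is named. The shares of all loci, 8.14% higher and 8.75% lower, are on this scale as well, and no such share is given for plain FPKM. With a mean of at least 5 FPKM as the minimum, 5 of 17 genes were at least 2-fold higher, beside 7.62% of loci, and 2 were at least 2-fold lower, beside 6.46%.

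**Figure D2:**
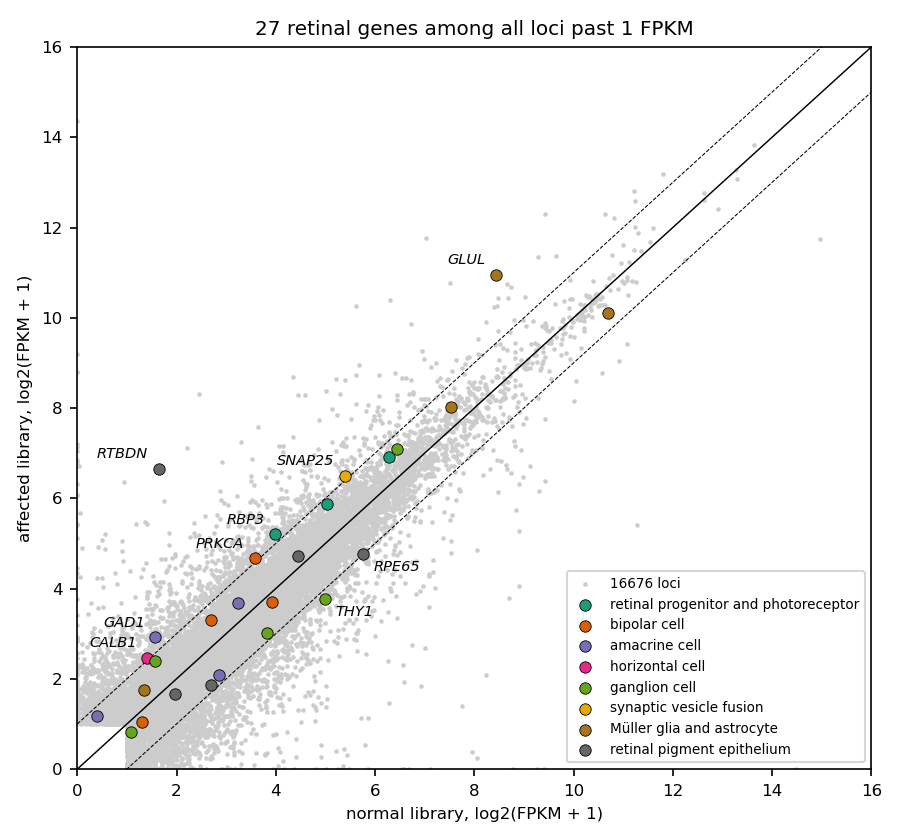
Level of each locus in the normal (x axis) and affected (y axis) library as log2(FPKM + 1), with the 16676 loci that reached 1 FPKM somewhere in grey and the 27 genes in colour by cell type. The solid line marks equal levels and the dashed lines a 2-fold difference. The genes beyond the dashed lines are named, and RTBDN lies farthest from the line of equality.

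RAX, CRX and RBP3 stand closest to the photoreceptors. RAX, a homeobox factor of the early eye field that ciliary epithelium also expresses, was at 31.9 FPKM in the normal library and 57.4 FPKM in the affected one. CRX, the homeobox factor that drives photoreceptor genes, was at 76.5 and 120.1 FPKM. RBP3, the retinoid-binding protein that photoreceptors secrete into the space beneath the retina, was at 14.9 and 36.0 FPKM. All 3 were higher in the affected library, by 1.80, 1.57 and 2.42 times. Only RBP3 passed 2-fold, with a log2 ratio of 1.22.

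Genes of the photoreceptors themselves differed more. Of the 41 photoreceptor genes listed for comparison 35 had a row and 33 passed the minimum, and their median log2 ratio was 1.84. With the affected library higher, 27 of these 33 passed 2-fold, and 1 was at least 2-fold lower. RCVRN, the calcium sensor recoverin, had the highest mean level with 149.3 and 513.8 FPKM. PDE6A, a subunit of the rod phosphodiesterase, was at 2.34 and 60.3 FPKM, and CNGA1, a subunit of the rod cation channel, was at 0.314 and 17.7 FPKM. GUCA1A, an activator of guanylate cyclase, was at 1.28 and 41.9 FPKM, and its relative GUCA1B at 0.0194 and 104.6 FPKM. GRK1, the rhodopsin kinase, was at 1.08 and 19.9 FPKM. ARR3, the cone arrestin, was at 2.58 and 30.2 FPKM. Of the 33 genes past the minimum, 2 were lower in the affected library. These were the cone genes OPN1SW, with 11.7 and 1.67 FPKM, and GNGT2, with 30.3 and 18.5 FPKM, which are named here after their values were seen. GNB1 was listed at 0 in both libraries.

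The bipolar cell genes were at low to moderate levels and differed in direction. GRM6, the glutamate receptor by which ON bipolar cells read the photoreceptor signal, was at 5.50 FPKM in the normal library and 8.80 FPKM in the affected one. PRKCA, a protein kinase C used as a marker of rod bipolar cells and also made in many other tissues, was at 10.9 and 24.5 FPKM. PRKCA was the only gene of this group beyond 2-fold, with a ratio of 2.25 (1 kb counting interval 2.06 to 2.45). CABP5, a calcium-binding protein of rod bipolar cells, was 0.854 times its normal level (0.778 to 0.937), with 14.2 and 12.1 FPKM. GRIK1, a kainate receptor subunit of OFF bipolar cells, was at 1.46 and 1.07 FPKM. These counting intervals are exact 95% intervals of the ratio for a transcript with 1 kb of effective length. They do not contain the variation between cats, which is unknown. The median log2 ratio of the 4 genes was 0.19, and it was 0.59 with a mean of at least 5 FPKM as the minimum.

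Further bipolar genes were mixed in direction. Of 20 listed for comparison, 18 had a row and passed the minimum, with 12 higher and 6 lower in the affected library and a median log2 ratio of 0.44. At least 2-fold higher were 5 of them, and none of the 18 was at least 2-fold lower on the log2(FPKM + 1) scale. In plain FPKM 6 were at least 2-fold higher, and 4 were at least 2-fold lower. These 4 were VSX1, LHX4, NYX and SCGN, all under 5 FPKM, and they are named after their values were seen. SLC17A7, the vesicular glutamate transporter of photoreceptors and bipolar cells, differed most, with 6.43 and 61.2 FPKM. PCP2, a modulator of G proteins in ON bipolar cells, was at 7.38 and 45.3 FPKM. GNAO1 and RGS7, parts of the signalling chain behind GRM6, were at 9.68 and 24.9 FPKM and at 10.3 and 23.2 FPKM. CACNA1F, a calcium channel of photoreceptor and bipolar ribbon synapses, was at 4.16 and 12.8 FPKM. Photoreceptors share SLC17A7 and CACNA1F, and which cells gave the difference was not tested. GNG13, a G protein subunit, had the highest mean level of this list with 70.6 and 91.1 FPKM.

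Among amacrine cell genes the enzymes that make the inhibitory transmitter GABA were both higher in the affected library. GAD1 was at 1.98 FPKM in the normal library and 6.57 FPKM in the affected one, a ratio of 3.32 (1 kb counting interval 2.73 to 4.03). GAD2, the other isoenzyme, was at 0.310 and 1.25 FPKM, a ratio of 4.01 (2.49 to 6.76). Because GAD2 is so low, its log2 ratio was only 0.78, and it was 1.71 with a pseudocount of 0.1. CALB2, the calcium-binding protein calretinin of amacrine and ganglion cells, was at 8.40 and 11.7 FPKM. TFAP2A, a transcription factor of amacrine cells that surface epithelium expresses as well, was lower in the affected library with 6.25 and 3.27 FPKM. The table lists TFAP2A on 3 rows with the same span, and the sum of these rows gave a log2 ratio of −0.89 in place of −0.77. Corneal and conjunctival epithelium genes were lower beside it, with 12 of 13 genes lower and a sum of 1247 FPKM in the normal library and 326 FPKM in the affected one. PAX6, the 1 higher gene, held 147.8 and 211.0 FPKM of these sums and is not particular to that epithelium. The part of corneal and conjunctival epithelium in the TFAP2A value was not tested.

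The horizontal cell genes were both higher in the affected library, at low levels. CALB1, the calcium buffer calbindin, was at 1.66 and 4.53 FPKM, a ratio of 2.73 (2.20 to 3.40). ONECUT1, a transcription factor of horizontal cells, was at 0.127 and 0.264 FPKM. That is 9.01 and 17.8 fragments per kilobase, and the counting interval of its ratio, 0.899 to 5.33, contains 1.

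Other amacrine and horizontal genes were mixed in direction. Of 20 listed for comparison, 10 passed the minimum, and 7 of these were higher and 3 lower in the affected library. TFAP2B, a relative of TFAP2A, was at 40.8 and 8.38 FPKM. NPY, a neuropeptide of amacrine cells and of sympathetic nerve fibres, was at 12.3 and 2.85 FPKM. PAX6, a factor of amacrine cells that ciliary and corneal epithelium also express, was the highest of the list with 147.8 and 211.0 FPKM.

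Among ganglion cell genes the defining factors POU4F1 and POU4F2, which specify ganglion cells, were close to the limit of detection. POU4F1 was at 0.120 FPKM in the normal library and 0.0513 FPKM in the affected one. Its locus of 2067 bases on chromosome A1 can hold at most 16.1 and 6.54 fragments at these values. POU4F2 can hold at most 6.04 and 3.07 fragments, so no ratio is given for it. Neither gene showed a difference detectable at this depth, and the counting interval of the POU4F1 ratio was 0.0612 to 1.41.

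The remaining ganglion cell genes, which other tissues of the eye also express, were split by direction. RBPMS, an RNA-binding protein that marks all ganglion cells and is made by smooth muscle too, was at 86.2 and 135.9 FPKM. NEFM, the medium neurofilament of axons, was at 1.94 and 4.28 FPKM, a ratio of 2.20 (1.79 to 2.71). THY1, a surface glycoprotein of ganglion cells and of fibroblasts, was at 30.8 and 12.7 FPKM. THY1 had the lowest log2 ratio of all 27 genes with −1.22. STMN2, a tubulin-binding protein of growing axons, was at 13.1 and 7.05 FPKM. ELAVL4, a neuronal RNA-binding protein, was at 1.12 and 0.764 FPKM, a ratio of 0.682 (0.463 to 0.967). The median log2 ratio of the 5 genes past the minimum was −0.27. It depended on the minimum, with −0.81 for a mean of at least 5 FPKM and −0.091 for none.

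Markers of other tissues that express these genes differed too. Beside THY1, all 8 stromal fibroblast genes with a ratio were at least 2-fold lower in the affected library, and COL1A2 has none. Beside STMN2 and NEFM, 9 of 14 peripheral nerve and Schwann cell genes were lower and 5 higher, with sums of 221 FPKM in the normal library and 182 FPKM in the affected one. PRPH, the intermediate filament of peripheral neurons, was among the higher with 0.816 and 4.98 FPKM. In the same list PHOX2A and HAND2, factors of autonomic neurons, were listed at 0 in both libraries. Beside RBPMS, 6 of 9 smooth muscle genes were lower and 3 higher. The part of these tissues in the ganglion cell values was not tested.

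Further ganglion cell genes were mixed in direction. Of 20 listed for comparison, 12 passed the minimum, with 5 higher and 7 lower and a median log2 ratio of −0.36. Of these 12, none was at least 2-fold higher, in plain FPKM either. The 6 genes with a row under the minimum were not counted, and they are named after their values were seen. In plain FPKM, NEFH, SLC17A6, OPN4 and POU4F3 were more than 2-fold higher, and ATOH7 and EBF3 were lower by less than 2-fold. At least 2-fold lower were 2 of the 12, beside 8.75% of all loci, and 6 of the 12 in plain FPKM, for which no share of all loci is given. EBF1, a transcription factor, was among them with 3.30 and 0.635 FPKM. UCHL1, an abundant ubiquitin hydrolase of neurons, was the highest of the list with 63.2 and 79.8 FPKM.

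Genes of transmitter release, some shared by all neurons and some particular to ribbon synapses, were mostly higher in the affected library. SNAP25, a membrane protein of the fusion complex, was at 41.1 FPKM in the normal library and 89.8 FPKM in the affected one, a ratio of 2.19 (2.09 to 2.29). Of 20 further synaptic genes 16 passed the minimum, and 15 of these were higher, 5 of them at least 2-fold, with a median log2 ratio of 0.85. In plain FPKM 7 of the 16 were at least 2-fold higher and 0 at least 2-fold lower. VAMP2, the vesicle partner of SNAP25, was at 36.1 and 131.0 FPKM. SYP, the vesicle protein synaptophysin, was at 17.4 and 53.9 FPKM. CPLX4, a complexin of retinal ribbon synapses, differed most with 6.38 and 70.4 FPKM. STX3, the syntaxin of ribbon synapses, was at 16.7 and 39.3 FPKM. CPLX1, a complexin of conventional synapses, was at 6.28 and 18.2 FPKM. The 1 lower gene was STX1A, a syntaxin of conventional synapses, with 4.88 and 3.18 FPKM, named after its values were seen. Photoreceptor terminals carry ribbon synapses too, and their part in these values was not tested.

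GLUL, the glutamine synthetase by which Müller glia convert glutamate to glutamine, was at 347 FPKM in the normal library and 1981 FPKM in the affected one. GLUL lies on chromosome F1 of felCat5 from 25518501 to 25559324. Its ratio was 5.72 (5.64 to 5.79) and its log2 ratio of 2.51 exceeded that of 99.2% of the loci. In level, GLUL exceeded 98.5% of loci in the normal library and 99.8% in the affected one. RLBP1, a retinaldehyde-binding protein of Müller glia, pigment epithelium and ciliary epithelium, was at 185 and 261 FPKM, a ratio of 1.41. VIM, the intermediate filament vimentin, is made by Müller glia but also by fibroblasts, vessels and lens, and it was lower in the affected library with 1647 and 1105 FPKM. Beside VIM, stromal fibroblast genes were lower in 8 of 8 cases, and their part in its value was not tested. GFAP, the filament of astrocytes and of reactive Müller glia, was at 1.54 and 2.36 FPKM, a ratio of 1.53 (1.20 to 1.98). A gene named FAM187A shared the span of GFAP and was at 0.922 and 0.912 FPKM. The 4 genes thus had 1 difference beyond 2-fold, that of GLUL. Other parts of the dissected tissue are also known to express GLUL, and their part in its value was not tested.

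Further Müller glia genes were mixed in direction. Of 20 listed for comparison, 16 passed the minimum, with 8 higher and 8 lower and a median log2 ratio of 0.026. At least 2-fold higher were 4 and lower 2, and in plain FPKM these counts were 6 and 3. Only in plain FPKM did AQP4, KCNJ10 and SOX9 pass 2-fold, AQP4 and KCNJ10 higher and SOX9 lower in the affected library, and they are named after their values were seen. CLU, the chaperone clusterin, had the highest mean level and was at 800.2 and 2641 FPKM. HES1, a target of Notch signalling, was at 50.1 and 133.9 FPKM. SLC1A3, the glutamate transporter of Müller glia, was at 15.5 and 33.3 FPKM. ALDH1L1, a folate enzyme of astrocytes, was at 1.64 and 4.65 FPKM. At least 2-fold lower on the log2(FPKM + 1) scale were CA2, a carbonic anhydrase that ciliary epithelium also makes, with 370.2 and 111.9 FPKM, and CRYM, a thyroid hormone binding protein, with 10.7 and 3.004 FPKM. SOX2, a defining factor of Müller glia, was listed at 0 in both libraries, which is not read as absence because values of 0 in this table can be failed estimates.

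Of the 5 pigment epithelium genes 3 were lower in the affected library, and RTBDN stood far apart from the others. RPE65, the isomerase of the visual cycle, was at 53.2 FPKM in the normal library and 26.1 FPKM in the affected one, a ratio of 0.490 (0.463 to 0.519). BEST1, the chloride channel bestrophin, was at 5.45 and 2.64 FPKM, a ratio of 0.485 (0.404 to 0.580). LRAT, which esterifies retinol for RPE65, was at 2.92 and 2.18 FPKM. RGR, an opsin of pigment epithelium and Müller glia, was at 20.7 and 25.4 FPKM. The 3 genes RPE65, BEST1 and LRAT were thus lower and RGR was 1.23 times higher (1.14 to 1.32). Beside them, 8 of 9 pigment cell genes were lower in the affected library, with sums of 2575 and 1770 FPKM. TYR, the key enzyme of melanin synthesis, was at 182.7 and 26.8 FPKM. Pigmented cells of iris and ciliary body express those genes as well, and their part in the values of RPE65 and BEST1 was not tested.

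RTBDN, or retbindin, is a riboflavin-binding protein at the border of photoreceptors and pigment epithelium that is made by rods, although it was grouped here with pigment epithelium genes. RTBDN was at 2.12 FPKM in the normal library and 99.6 FPKM in the affected one, 47.1 times higher (40.1 to 55.8). The log2 ratio of 5.01 was the highest of the 27 genes and exceeded that of 99.9% of the loci. The gene lies on chromosome A2 of felCat5 from 8895279 to 8900123, and no other locus of the table overlaps it. It also exceeded the log2 ratio of 32 of the 33 photoreceptor genes, and only GUCA1B, at 0.0194 FPKM in the normal library, was above it. Without RTBDN the 4 other genes of this group had log2 ratios between −1.001 and 0.28, and the median of all 5 was −0.30, which turned to 0.28 with a mean of at least 5 FPKM.

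Further pigment epithelium genes were also split. Of 20 listed for comparison, 17 had a row and passed the minimum, with 9 higher and 8 lower and a median log2 ratio of 0.084. TTR, a carrier of retinol and thyroid hormone made by pigment and ciliary epithelium, had the highest mean level with 504.6 and 990.6 FPKM. RDH10, a retinol dehydrogenase, was at 32.9 and 70.0 FPKM, and CHRDL1, a BMP antagonist, was at 60.7 and 135.7 FPKM. STRA6, the receptor for circulating retinol-binding protein, was at 22.1 and 5.58 FPKM. SULF1, a heparan sulfatase, was at 16.3 and 3.06 FPKM.

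The question was whether neurons and glia of the retina follow the photoreceptor genes. In these libraries 27 of 33 photoreceptor genes passed 2-fold with the affected library higher, and 5 of the 19 genes of neurons and glia, or 26.3%, did, beside 8.14% of all loci. At least 2-fold lower were 1 of the 33 and 1 of the 19, the latter 5.26%, beside 8.75% of all loci. The 19 leave out RAX, CRX and RBP3 and the 5 pigment epithelium genes, among them RTBDN, which rods make. This choice was made after the values were seen. The median log2 ratios were 1.84 and 0.50. Of the 19 genes, GLUL alone had a log2 ratio above the photoreceptor median, and of all 27 genes RTBDN did as well. Conversely, 29 of 33 photoreceptor genes had a log2 ratio above 0.50, the median of the 27 genes. Summed FPKM was 4.02 times higher in the affected library for the photoreceptor list and 1.55 times higher for the 30 genes. These are descriptions of the same 2 libraries, without a replicate, and the difference between the lists was not tested.

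**Figure D3:**
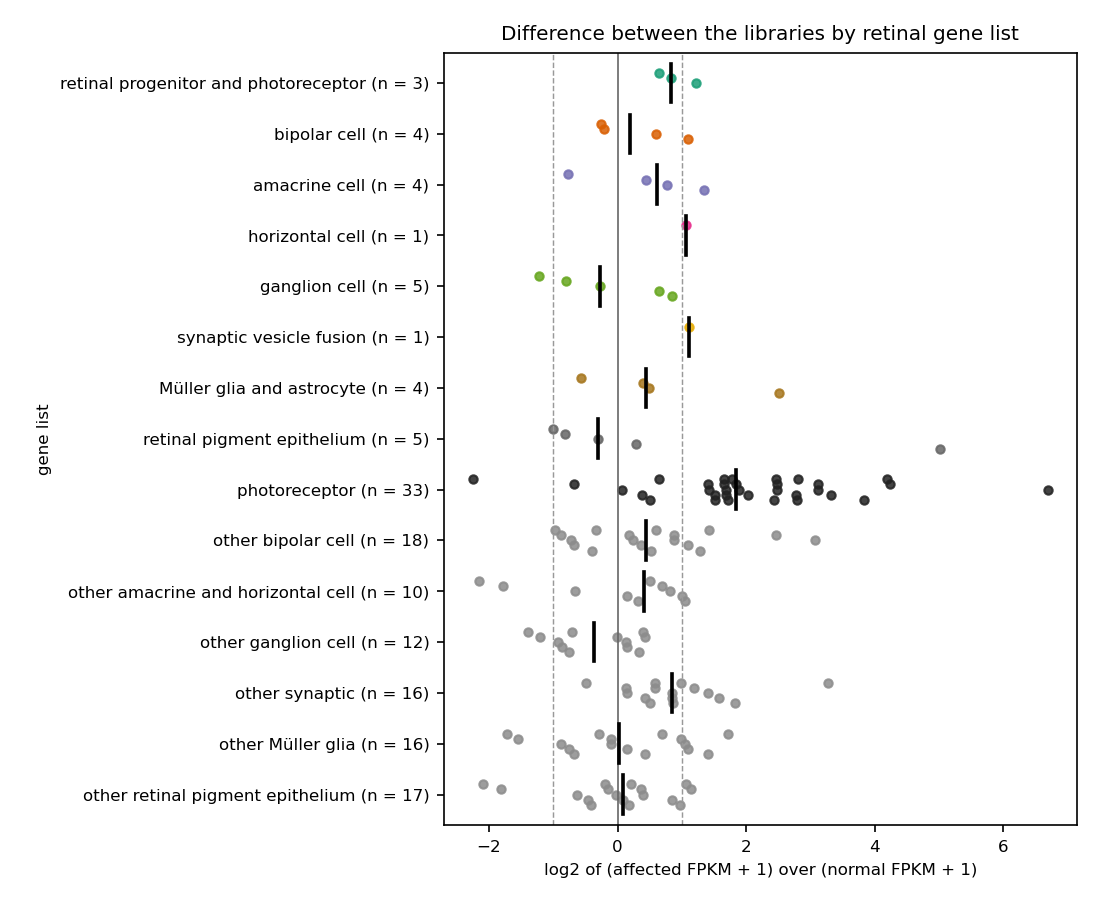
Log2 ratio of affected over normal for single genes (points) and the median of each list (black bar), with the 8 groups of the 27 genes above the photoreceptor list and 6 further lists of retinal genes. The solid line marks no difference and the dashed lines 2-fold. The photoreceptor points lie mostly to the right of the 2-fold line, whereas the ganglion cell median lies left of 0. The pigment epithelium median of −0.30 also lies left of 0, but it was 0.28 over genes whose mean reached 5 FPKM.

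The dissected tissue also expresses many of these genes. A set of 16 names was marked as shared with nerve, muscle, stroma, surface epithelium, pigment cells or ciliary epithelium, and 18 were not marked. RAX stood among the 18, although ciliary epithelium expresses it. The pigment epithelium genes RPE65, BEST1, RGR and LRAT stood there too. The part of pigmented cells of iris and ciliary body in them was not tested, so the 18 may not be free of the other tissue. Among the 15 of those 18 genes that passed the minimum, 4 were at least 2-fold higher and 1 was at least 2-fold lower, with a median log2 ratio of 0.59. Without RAX the counts over the other 14 genes were 4 and 1 again, and the median was 0.51. Of the 16 shared names 12 had a row of their own and all 12 passed the minimum. Among these 3 were at least 2-fold higher and 1 was at least 2-fold lower, with a median of 0.45. These shares were 26.7% higher and 6.67% lower in the former set and 25.0% and 8.33% in the latter, beside 8.14% and 8.75% of all loci, and the difference between the sets was not tested.

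Lists of other tissues in or beside the dissected piece differed in both directions. Ciliary epithelium genes, which adjoin the retina, had a median log2 ratio of 1.42, and 7 of 13 were at least 2-fold higher. Their part in the values of RLBP1, RAX and GLUL was not tested. Among them COL9A1, a vitreous collagen, was at 403.5 and 1718 FPKM, and OPTC, a vitreous proteoglycan, was at 351 and 1235 FPKM. In the same list GJA1, a gap junction protein, was lower with 682.7 and 216.6 FPKM, and CPAMD8 was listed at 0 in the affected library. Lens genes had a median of 1.34, with 11 of 13 higher and CRYAA listed at 0 in the affected library. Stromal fibroblast genes had a median of −4.88, corneal and conjunctival epithelium −2.55, pigment cells −0.63, smooth muscle −0.55, and peripheral nerve and Schwann cells −0.50. The tissue composition of the 2 pieces and the condition of the cats cannot be told apart in this design.

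**Figure D4:**
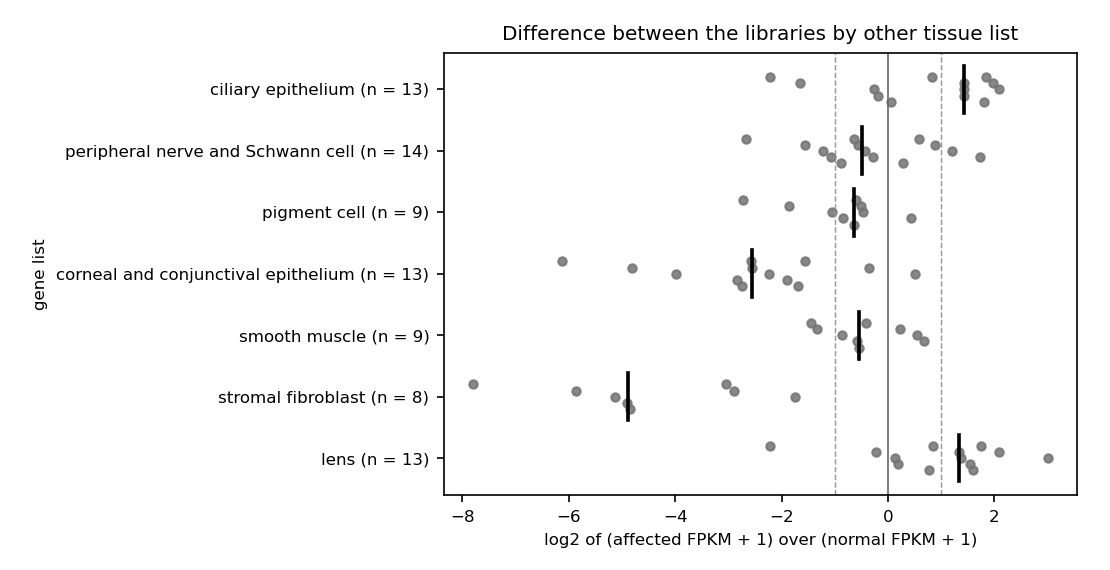
Log2 ratio of affected over normal for single genes (points) of 7 lists that mark other tissues in or beside the dissected piece, with the median of each list as a black bar. Genes listed at 0 in exactly 1 library are left out. Ciliary epithelium and lens medians lie right of the 2-fold line, and those of corneal epithelium and stromal fibroblasts lie left of it.

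The position of the genes was taken from the table, in felCat5. The 30 genes are spread over many chromosomes, and the closest pair, CRX and CABP5, lies 82.5 kb apart on chromosome E2. CRX lies from 10741103 to 10758839 and CABP5 from 10841321 to 10850488. These neighbours differed in direction, with log2 ratios of 0.64 and −0.21. Of the genes named above, THY1 lies on chromosome D1 from 16659155 to 16664054, GAD1 on chromosome C1 from 159557360 to 159599941, and RPE65 on chromosome C1 from 55709714 to 55748420.

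Of the 34 names, 4 had no row of their own. TRPM1, the channel that opens in ON bipolar cells when GRM6 is released from glutamate, was joined with an unnamed Ensembl gene at a locus of 61.5 FPKM in the normal library and 212.1 FPKM in the affected one. Melanocytes also make TRPM1, and their part in this value was not tested. SYT1, the calcium sensor of transmitter release, was joined in the same way at 18.7 and 29.6 FPKM. SNCG, the synuclein of ganglion cells and peripheral nerve, was joined with ADIRF at 244.7 and 125.5 FPKM. The share of each gene in these joined values is not known. NEFL, the light neurofilament, was not among the names listed and was not analysed here.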

How the data were processed

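The authors aligned reads from a TruSeq library per cat to felCat5, using TopHat2 2.0.9 guided by the gene models of Ensembl, and then obtained FPKM per locus with Cufflinks 2.1.1. The deposited table holds 1 FPKM value for each locus and library. The scaling between libraries is not given in the sources used here. FPKM do not allow a count model, and 1 library per condition gives no p-value.

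Gene names were matched exactly, and where a name repeats its highest row by mean FPKM was taken. Log2 ratios had a pseudocount of 1. Genes with at least 1 FPKM in either library were counted. In lists for comparison, genes listed at 0 in exactly 1 library were left out of ratios. The value of 1 fragment was recovered from whole-number steps of low values at short unnamed loci. In the normal library 96.3% of 1495 values, and in the affected library 95.6% of 1253, lay within 0.03 of a whole fragment (6% by chance), after 175 bases were taken off the span. Exact 95% intervals use that value for 1 kb and cover counting error only. Both steps were tested on simulated data with known answers.

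All 34 names are reported. Of each comparison list the text names the gene with the highest mean and up to 6 with the largest log2 ratio among those beyond 2-fold, not all of which are printed, and some items are not reported here. The members and lists were chosen with earlier results of these data known. Alternatives were another pseudocount, minimum, scaling, threshold and summary, and a restriction to genes not marked as shared with the other tissue. Overlaps between strands cannot be resolved, because the kit does not mark strand. Python 3.11.15, numpy 2.4.6, pandas 2.3.3, scipy 1.17.1 and matplotlib 3.10.9 were used.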

Additional observations from a re-analysis of the deposited data

How the results depend on the processing

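No paired analysis was possible because the normal and the affected group hold a single library apiece. Of 84 recomputed list values, 59 moved by less than 0.1 on the log2 scale or, for counts, by at most 1.5 times, and 25 moved more. None of the 61 recomputed values of single genes changed sign, but with a pseudocount of 0.1 GAD2 (1.71), NEFM (1.10) and BEST1 (−1.02) passed 2-fold.

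With a pseudocount of 0.1 the median log2 ratio was 2.13 for photoreceptors, 1.08 for amacrine, 1.40 for horizontal and −0.50 for ganglion cell genes, and −0.41 for pigment epithelium. With no minimum it was 0.61 for horizontal and −0.091 for ganglion cell genes. With a mean of at least 5 FPKM it was 0.59 for bipolar, 0.44 for amacrine and −0.81 for ganglion cell genes, and 0.28 for pigment epithelium, opposite in sign to −0.30. The mean over the list was 2.04 for photoreceptors, 0.31 for bipolar, 0.45 for amacrine, −0.16 for ganglion cell and 0.71 for Müller glia genes, and 0.63 for pigment epithelium, again opposite in sign, which RTBDN sets as the 1 high value among 5. At least 4-fold higher were 2 genes and at least 4-fold lower 0, and no share of all loci at 4-fold is given to read these counts against. Among genes not marked as shared with the other tissue, 4 were at least 2-fold higher and 1 at least 2-fold lower, with fewer genes counted. These counts were 4 and 1 without RAX too. With the affected library rescaled to a median log2 ratio of 0, only 1 gene was at least 2-fold lower, since RPE65 stood on the threshold. Rescaling to a sum of 1000000 moved the median of all loci by −0.05. Adding the 3 joined loci and removing cone genes changed no list value beyond these limits. With genes of neurons and glia alone, 1 gene was at least 2-fold lower, since RPE65 was then not counted. These 3 settings, and the one without RAX, were chosen after the data were seen.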
